A study of Mus musculus with 12 samples.

Results

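The chemokines and their receptors were examined in lung and spleen of wild-type (WT) mice and of mice that carry a constitutive deletion of integrin β3 (ITGB3 KO in the labels, β3-/- below). The set was chosen by gene symbol alone. It holds every gene whose symbol begins with Ccl, Cxcl or Xcl and a digit (ligands) or with Ccr, Cxcr or Xcr and a digit (receptors), together with Cx3cl1 and Cx3cr1. This gave 61 genes, of which 42 were ligands and 19 were receptors, out of 22117 genes listed in both tissues. Of the 61 genes, 60 were listed above 0 in at least 1 lung library and 58 in at least 1 spleen library. The study asked what the loss of β3 does to immune homeostasis of the lung, and the chemokine system was read here as the part of the transcriptome that positions leukocytes in both organs. The 12 libraries formed 4 groups of 3, namely WT lung, β3-/- lung, WT spleen and β3-/- spleen. All mice were on the C57BL/6 background, were 8 to 10 weeks old and received no treatment, and each mouse gave 1 lung and 1 spleen library. WT mice were bought and β3-/- mice were a gift, and they were not described as littermates, so that origin and genotype cannot be told apart.

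Chemokines are small secreted proteins that guide migrating cells by binding G-protein-coupled receptors on their surface. A homeostatic group, with Ccl19, Ccl21 and their receptor Ccr7, Cxcl13 and Cxcr5, and Cxcl12 and Cxcr4, builds the T cell and B cell zones of lymphoid organs such as the spleen. An inflammatory group, with Cxcl1, Cxcl2 and Cxcr2 for neutrophils, Ccl2 and Ccr2 for monocytes and Cxcl9, Cxcl10 and Cxcr3 for effector T cells and NK cells, is induced in stressed or infected tissue. The lung adds chemokines made by its epithelium, such as Cxcl15 and Cxcl17.

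All levels are given in FPKM (mapped fragments scaled to transcript length and to the fragments mapped in the library), so that levels of different genes can be set side by side. Read counts were not recoverable and the depth of the libraries is unknown, so no counting interval is given. The libraries fitted their labels in tissue. Summed markers of alveolar type 2 cells were at 16020 to 27039 FPKM in lung against 11.6 to 14.0 in spleen, and the splenic stromal genes Tlx1 and Nkx2-3 were listed at 0 in every lung library. Itgb3, the targeted gene, was at 1.29 to 1.94 FPKM in β3-/- lung against 3.68 to 4.39 in WT lung, and at 3.52 to 4.02 in β3-/- spleen against 8.5 to 10.6 in WT spleen. The summed level of 4 Y-linked genes was 57.4 to 66.6 FPKM in the WT libraries and 0 in all β3-/- libraries, so sex and genotype cannot be told apart. Within a tissue, libraries correlated at 0.970 to 0.990 over all genes on the log2 scale. In lung, WT 1, WT 2 and β3-/- 3 held Ubb (a polyubiquitin gene) at 570 to 688 FPKM and the other 3 libraries at 4.52 to 4.97, a split that crosses the genotypes. In spleen, WT 2 held pancreas transcripts (summed level 1717 FPKM) and so did β3-/- 2 (194.5 FPKM), and β3-/- 3 held the highest neutrophil markers (2978 FPKM, where the WT libraries held 281 to 361).

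Some ligand genes are present in near-identical copies, which matters for every value given for them. Ccl21a and its copies Ccl21b, Ccl21d, Ccl21e and Ccl21f lie within a cluster on chromosome 4, and their coding sequences of 399 bases differ at 2 positions only (99.5% identity; GENCODE M39 transcripts, GRCm39). Counted from the first base of the start codon, Ccl21b differs from Ccl21a by T84A and C194T, and the coding sequences of Ccl21d, Ccl21e and Ccl21f carry the same pair of changes. The stretch from base 72 to base 206 is shown for both forms, with the differing bases in capitals, because the rest of the results depend on how far reads can tell these genes apart.

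Ccl21a: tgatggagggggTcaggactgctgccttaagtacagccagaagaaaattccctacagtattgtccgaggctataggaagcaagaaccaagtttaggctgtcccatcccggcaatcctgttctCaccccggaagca

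Ccl21b: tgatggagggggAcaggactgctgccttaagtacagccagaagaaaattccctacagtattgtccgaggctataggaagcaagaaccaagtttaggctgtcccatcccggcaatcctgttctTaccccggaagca

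Ccl21a is known to encode the serine form of the chemokine, made mainly in lymphoid organs, and the other copies the leucine form. In the same cluster, Ccl27b and Ccl27al differ from Ccl27a at 3 of 360 coding bases (C177T, G297A and A343C). How reads that fit several copies were counted is not given in the sources used here, so all values of these 8 genes are uncertain.

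In WT lung, 25 of 42 ligands had a mean of at least 1 FPKM, 13 at least 10 and 3 at least 100. The highest was Cxcl15 (lungkine, an attractant for neutrophils made by lung epithelium), with 262, 384 and 356 FPKM in WT 1, 2 and 3, which was 32.7% ± 4.63 (SD, n = 3) of the summed ligand level. Ccl6, a ligand made by macrophages, followed with 149.7, 142 and 154 FPKM, and Cxcl14, a ligand of epithelia and stroma, with 115, 147 and 104 FPKM. These 3 genes made up 55.1 to 62.8% of the summed ligand level of a WT lung library. Ccl21a was next at 91.2, 86.1 and 81.0 FPKM, ahead of Ccl5, a ligand of activated T cells and NK cells, at 47.6, 70.7 and 55.1 FPKM. Cxcl17, an attractant made by mucosal epithelium, was at 47.8, 8.08 and 43.2 FPKM, the low value being that of WT 2.

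Receptors were lower, and Cxcr4 and Ccr7 together made up 61.0 to 65.4% of the summed receptor level in WT lung. Cxcr4, the receptor of Cxcl12, was at 61.7, 73.9 and 63.9 FPKM, and Ccr7, which guides naive T cells and dendritic cells, was at 22.7, 35.0 and 25.9 FPKM. Ccr2 (monocytes) was at 12.8, 15.5 and 10.4 FPKM, Cxcr5 (B cells and follicular helper T cells) at 10.3, 11.6 and 9.90 FPKM and Cxcr2 (neutrophils) at 8.44, 7.46 and 8.54 FPKM. The ranges of Cxcr5 and Cxcr2 did not overlap, but those of Ccr2 and Cxcr5 did.

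In WT spleen the order was another. Ccl21a was the highest ligand at 403, 633 and 441 FPKM, with the top value in WT 2, and Cxcl12, a stromal ligand that holds Cxcr4-bearing cells, followed at 303, 276 and 284 FPKM. Ccl5 was at 190.0, 211 and 213 FPKM and Cxcl13, which attracts B cells to follicles, at 204, 215 and 188 FPKM, and these ranges overlapped. Ccl19, the other ligand of Ccr7, was at 79.9, 107 and 78.0 FPKM. Cxcr4 and Ccr7 were again the highest receptors, with 137, 149.7 and 214 FPKM and 100.2, 116 and 138 FPKM. Cxcr5 was at 96.4, 79.8 and 82.0 FPKM, far above Ccr3 (eosinophils) at 18.6, 15.1 and 19.7 FPKM and Ccr6 (B cells and some T cells) at 16.4, 16.8 and 18.5 FPKM. Of the 42 ligands, 19 reached a WT mean of 1 FPKM in both tissues, 6 in lung only, 6 in spleen only and 11 in neither. Of the 19 receptors, 12 reached it in both, 2 in spleen only and none in lung only.

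**Figure D1:**
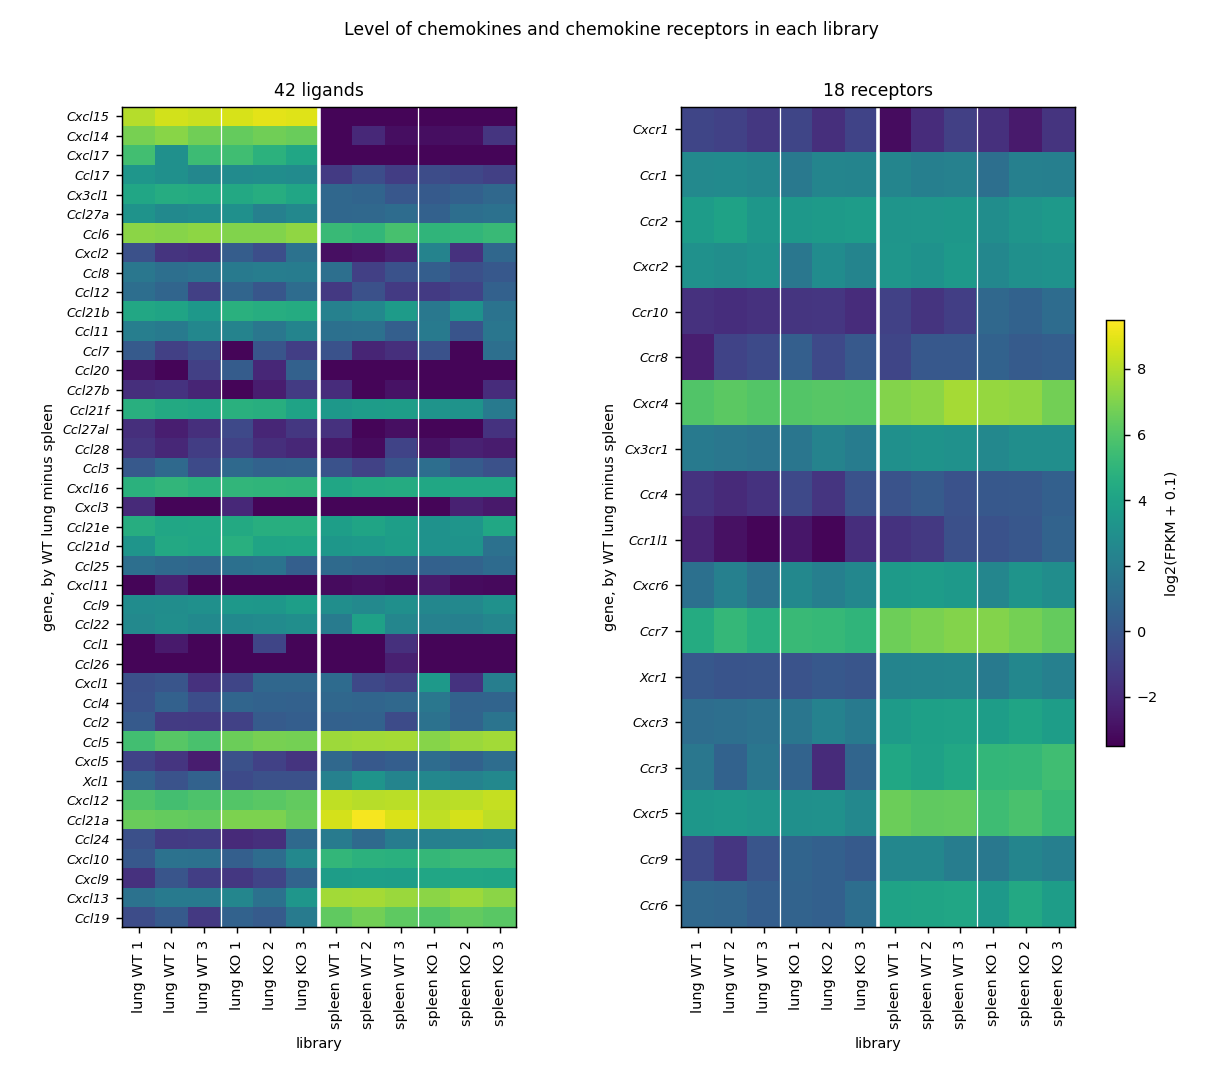
Level of each of the 42 ligands (left) and of 18 of the 19 receptors (right) in each of the 12 libraries, as log2(FPKM + 0.1) by colour, genes ordered by the WT difference between lung and spleen (KO stands for β3-/-). Cxcl15 and Cxcl17 at the top of the ligands were listed at 0 in all 6 spleen libraries, whereas Cxcl13 and Ccl19 at the bottom were at 188 to 215 and 78.0 to 107 FPKM in WT spleen.

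The tissues were compared within WT mice by limma on log2(FPKM + 0.1), over 15816 genes with at least 0.1 FPKM in at least 3 of the 6 libraries, and a gene was called at an absolute log2 fold change above 1 with a Benjamini-Hochberg adjusted p below 0.05. Of the 61 genes, 56 could be tested. Of these, 34 were called (60.7%, against 42.4% of all genes tested). Higher in lung were 11, all of them ligands (background 23.1%), and higher in spleen were 23, of which 10 were ligands and 13 receptors (background 19.2%). Among those higher in spleen, Ccr1l1 and Cxcl5 reached the filter only because of their spleen libraries. In WT lung Ccr1l1 was at 0.116, 0.0327 and 0 FPKM and Cxcl5 at 0.445, 0.252 and 0.0846, so their calls are descriptive. The median difference, lung minus spleen, was -1.66 for the 19 receptors and 0.50 for the 37 ligands tested, against -0.10 for all genes. No receptor was called higher in lung, and 16 of 19 receptors had a negative estimate. The 3 with a positive estimate were Ccr1, Ccr2 and Cxcr1, receptors of monocytes and neutrophils, with 0.38 ± 0.13, 0.35 ± 0.15 and 0.92 ± 0.52 (log2 difference ± SE). Cxcr1 stayed at or under 0.479 FPKM in every library. Other receptors of these cells, Cxcr2 of neutrophils and Cx3cr1 of monocytes and NK cells, had negative estimates.

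The largest differences toward lung were those of the epithelial ligands. Cxcl15 and Cxcl17 were listed at 0 in all 6 spleen libraries, so that no fold is given for them. Cxcl14 was at 0, 0.146 and 0.0243 FPKM in WT spleen and differed by 9.70 ± 0.33 on the log2 scale (limma adjusted p = 6.42e-07), a size set by the pseudocount, since it was 6.85 with a pseudocount of 1 and 11.6 with 0.01. Among the genes called higher in WT lung, Cxcl14, Cxcl15, Cxcl17 and Cxcl2 reached the filter only because of their lung libraries. Their calls, with the fold and p of Cxcl14, are given as a description only. Ccl17, a ligand of Ccr4 made by dendritic cells, was at 9.95, 8.10 and 5.69 FPKM in WT lung against 0.315, 0.634 and 0.352 in WT spleen (3.92 ± 0.30, limma adjusted p = 2.17e-05). Cx3cl1 (fractalkine, a membrane-bound ligand of endothelium and epithelium) was at 18.1, 23.4 and 21.8 FPKM against 1.66, 1.53 and 0.915 (3.88 ± 0.23, limma adjusted p = 5.70e-06). None of these ranges overlapped.

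Toward spleen, the largest differences were those of the ligands of T cell and B cell zones and of the interferon-induced ligands. Ccl19 was at 0.630, 1.04 and 0.292 FPKM in WT lung, a log2 difference from spleen of -6.99 ± 0.36 (limma adjusted p = 3.35e-06), and Cxcl13 was at 2.57, 3.42 and 3.58 FPKM, a difference of -5.95 ± 0.13 (limma adjusted p = 1.46e-07). Cxcl9 was at 0.220, 0.838 and 0.371 FPKM in lung and 13.3, 14.1 and 13.7 in spleen (-4.73 ± 0.37, limma adjusted p = 2.36e-05). Cxcl10 was at 0.963, 2.57 and 2.44 FPKM in lung and 34.5, 29.2 and 26.8 in spleen (-3.96 ± 0.34, limma adjusted p = 4.22e-05). Ccr6 showed the largest difference of any receptor, with 1.79, 1.62 and 1.19 FPKM in lung (-3.43 ± 0.16, limma adjusted p = 2.27e-06), although 46.7% of its exon bases overlap an antisense non-coding gene, Gm33799, and whether reads were counted by strand is not given. All WT spleen libraries stood above all WT lung libraries for these 5 genes, and the calls held in each of the 16 alternatives tried for this comparison.

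The β3-/- mice, a separate set of animals, were compared in the same way. There 35 of 56 genes were called (background 40.6%), 13 higher in lung (background 23.4%) and 22 higher in spleen (17.2%). Rescaled to TPM (all values of a library brought to a common sum), the split was 19 and 19. Among the genes called higher in β3-/- lung, Cxcl14, Cxcl15, Cxcl17 and Ccl20 reached the filter only because of their lung libraries. Among those called higher in β3-/- spleen, Ccr1l1 did so only because of its spleen libraries. These calls are descriptive. Of the 11 genes called higher in lung in WT mice, 9 were also called in β3-/- mice (81.8% of the WT calls and 69.2% of the β3-/- calls), and of the 23 called higher in spleen, 20 were (87.0% and 90.9%). The same shares were not computed over all genes, so they are not read as a trait of the chemokine genes. Ccl5, Cx3cr1 and Cxcr6 were called higher in spleen in WT mice only, and Ccl2 and Ccr10 in β3-/- mice only. A call in 1 genotype alone is no test of a difference between them, which is given further on.

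**Figure D2:**
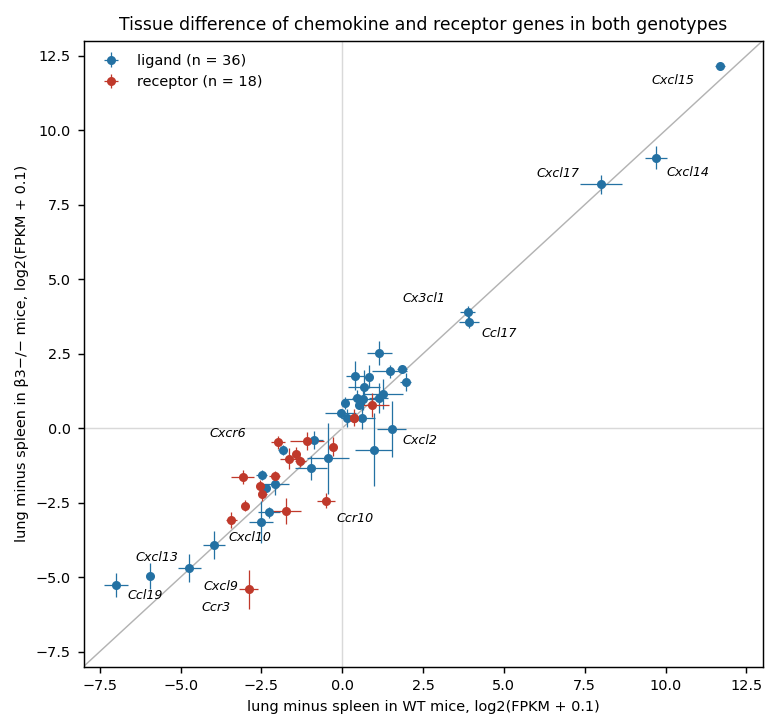
Difference between lung and spleen in WT mice (x axis) and β3-/- mice (y axis) on the log2(FPKM + 0.1) scale for 54 of the 55 genes tested in both, with SE as bars; the diagonal marks equal differences. Ccr10 lies below the diagonal at -0.50 in WT and -2.43 in β3-/- mice, and Cxcr6 above it at -2.0 and -0.47.

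The copies of Ccl21 were split unequally between the tissues. Ccl21a was 5.72-fold higher in WT spleen than in WT lung as a ratio of means (log2 difference -2.49 ± 0.17, limma adjusted p = 1.16e-05). Ccl21b, by contrast, was higher in lung, with 19.6, 17.0 and 10.7 FPKM in WT lung and 4.47, 5.89 and 12.3 in WT spleen (1.14 ± 0.39, limma adjusted p = 0.0303, with the ranges overlapping). Ccl21d, Ccl21e and Ccl21f were not called in WT mice, at 0.40 ± 0.27, 0.44 ± 0.14 and 0.82 ± 0.13, and were called higher in lung in β3-/- mice, at 1.76 ± 0.48, 1.01 ± 0.27 and 1.73 ± 0.38. Ccl21a made up 53.2 to 56.9% of the summed Ccl21 level in the 6 lung libraries and 89.4 to 93.1% in the 6 spleen libraries. The share differed, lung minus spleen, by -37.3 percentage points in WT mice and -36.3 in β3-/- mice (exact two-sided permutation p = 0.1 in each, the smallest value that 3 against 3 can give, over 2 tests). The permutations treated the libraries as independent, although each mouse gave 1 lung and 1 spleen library, so the pairing was ignored. These shares describe the deposited values rather than the transcripts of each gene.

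**Figure D3:**
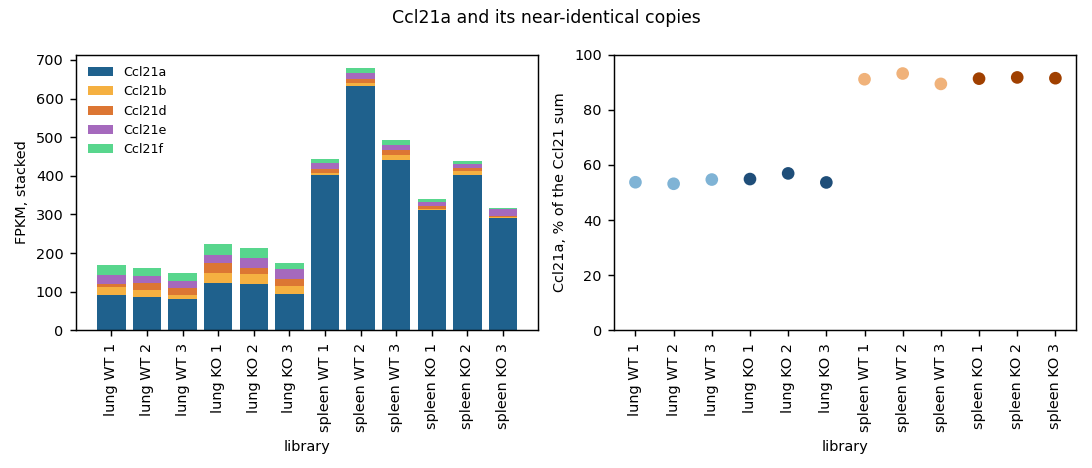
Ccl21a and its copies in each library as stacked FPKM (left) and the share of Ccl21a in their sum in percent (right; KO stands for β3-/-). The share lies at 53.2 to 56.9% in all lung libraries and at 89.4 to 93.1% in all spleen libraries, with no overlap between tissues and overlap between genotypes.

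Most of the genes lie in clusters, and neighbours differed widely in level. With members joined when their starts lay within 1000000 bases of each other (GENCODE M39, GRCm39), 45 of the 61 genes fell into 10 clusters of at least 2 members. The cluster on chromosome 5 from 90907186 to 91053797 holds Cxcl5, Cxcl3, Cxcl15, Cxcl1 and Cxcl2, and there Cxcl15 was at 262 to 384 FPKM in WT lung while the other 4 genes were at most at 0.86. The cluster on chromosome 8 from 95471226 to 95538664 holds Ccl22, Cx3cl1 and Ccl17, of which Cx3cl1 and Ccl17 were called higher in lung and Ccl22 was not (-0.05 ± 0.48).

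Between genotypes, no chemokine or receptor gene was called in lung. Of the 61 genes 56 could be tested there by limma, and 0 passed, against 50 of 15869 genes in all (0.315%, with 0.0315% lower and 0.284% higher). At an unadjusted p below 0.05, 16 of the 56 were found (28.6%, against 12.7% of all genes), 12 higher in β3-/- lung (background 4.95%) and 4 lower (background 7.70%). The groups did not overlap for 16 genes (28.6%, against 19.5% of all genes), 11 of them higher in β3-/- lung (background 6.86%) and 5 lower (12.6%). The median difference, β3-/- minus WT, was 0.27 for the 56 genes, 0.37 for the 38 ligands and 0.11 for the 18 receptors, against -0.02 for all genes. In bulk tissue, a change in the number of cells of a type and a change in RNA per cell cannot be told apart, and this holds for all genotype values below.

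Among the ligands, Ccl5 had the smallest p. It was at 47.6, 70.7 and 55.1 FPKM in WT 1, 2 and 3 and at 94.5, 114 and 111 in β3-/- 1, 2 and 3, so that every β3-/- library lay above every WT library. The log2 difference was 0.89 ± 0.15 (SE), with a limma adjusted p of 0.102. Without WT 2, the WT library with the most Ccl5, it was 1.05 (adjusted p = 0.0346), and with sample weights 1.03 (adjusted p = 0.0336), both past the thresholds. In the other 16 of 18 alternatives Ccl5 was not called. Without each other single library the limma adjusted p was 0.191 to 0.329, and with the Ubb group as a term 0.17. In the libraries with high Ubb the difference was 0.93 and in those with low Ubb 0.91. Markers of T cells, which make Ccl5, moved with it. Their summed level (6 of 7 listed) was 57.8 to 64.6 FPKM in β3-/- lung and 35.4 to 51.2 in WT lung, and NK cell markers (5 of 5) were at 37.0 to 42.2 against 26.5 to 34.6. Their part in the result was not tested.

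The other myeloid and stromal ligands that stood apart in lung were smaller in size. Ccl9, a mouse ligand that attracts myeloid cells through Ccr1, was at 7.05, 7.32 and 7.98 FPKM in WT and 10.9, 10.5 and 13.8 in β3-/- lung (0.64 ± 0.13, limma adjusted p = 0.136). Cxcl12 was at 60.7, 49.1 and 58.1 FPKM in WT and 65.9, 72.0 and 82.9 in β3-/- lung (0.39 ± 0.12, limma adjusted p = 0.258). In both cases β3-/- 3 was the highest library. Ccl8, which in mice signals through Ccr8, was at 3.07, 2.26 and 2.64 FPKM and 3.44, 3.98 and 3.73 (0.48 ± 0.16, limma adjusted p = 0.296). None of these passed the adjusted threshold, and the groups did not overlap.

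Of the ligands of Ccr7, Ccl21a, Ccl21b and Ccl19 had an unadjusted p below 0.05 in lung, and Ccl21d, Ccl21e and Ccl21f did not (0.37, 0.23 and 0.04 on the log2 scale, with overlap). Ccl21a was at 122, 121 and 93.2 FPKM in β3-/- lung, each above the WT maximum of 91.2 (0.37 ± 0.12, limma adjusted p = 0.291), with 0.07 in the high-Ubb and 0.59 in the low-Ubb libraries. Ccl21b was at 26.6, 24.3 and 22.2 FPKM (0.66 ± 0.22, limma adjusted p = 0.296). Ccl19 was at 1.40, 1.09 and 3.72 FPKM in β3-/- lung against 0.630, 1.04 and 0.292 in WT lung (1.46 ± 0.55, limma adjusted p = 0.352), the highest value again being in β3-/- 3. Ccr7 itself overlapped between genotypes, with 27.9 ± 6.37 FPKM (SD, n = 3) in WT and 35.8 ± 3.63 in β3-/- lung.

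Of the epithelial ligands, Cxcl15 was higher and Cxcl14 lower in β3-/- lung. Cxcl15 was at 412, 507 and 465 FPKM in β3-/- lung (0.48 ± 0.17, limma adjusted p = 0.313), and Cxcl14 at 87.3, 102 and 93.5 (-0.36 ± 0.14, limma adjusted p = 0.364). Cxcl17 overlapped, with 45.2, 29.1 and 18.5 FPKM in β3-/- lung. The airway epithelial markers ranged from 16615 to 62724 FPKM in WT and from 37707 to 56322 in β3-/- lung, and their part in these values was not tested. Xcl1, a ligand of activated NK cells and CD8 T cells, was at 1.40, 0.784 and 1.41 FPKM in WT and 0.577, 0.730 and 0.720 in β3-/- lung (-0.71 ± 0.28, limma adjusted p = 0.37). It thus lay lower in β3-/- lung, while Ccl5 lay higher.

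Among the receptors in lung, 4 had an unadjusted p below 0.05 without overlap, and none of them passed the adjusted threshold. Cxcr3, carried by effector T cells and NK cells, was at 2.08, 2.31 and 2.58 FPKM in WT and 2.94, 4.69 and 3.49 in β3-/- lung (0.63 ± 0.20, limma adjusted p = 0.286). Ccr9, known for gut-homing T cells, was at 0.528, 0.273 and 0.863 FPKM and 1.5, 1.31 and 1.05 (1.17 ± 0.38, limma adjusted p = 0.285). Cxcr5 had a negative estimate, with 10.3, 11.6 and 9.90 FPKM in WT and 8.19, 8.30 and 5.86 in β3-/- lung (-0.52 ± 0.16, limma adjusted p = 0.263). B cell markers (7 of 7) were at 152 to 244 FPKM in β3-/- lung and 172 to 287 in WT lung and overlapped. Cxcr2 was lower as well, with 3.05, 7.06 and 5.04 FPKM in β3-/- lung (-0.76 ± 0.28, limma adjusted p = 0.348), although the neutrophil markers (6 of 6) overlapped, at 284 to 440.5 FPKM against 335 to 383. Cxcr6 and Cxcl2 had an unadjusted p below 0.05 with overlapping groups, at 0.78 ± 0.26 and 1.63 ± 0.57. All 14 genes with an unadjusted p below 0.05 and no overlap kept their direction within both Ubb groups. The lack of overlap fixes that direction in advance, so it is no test of the Ubb split.

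**Figure D4:**
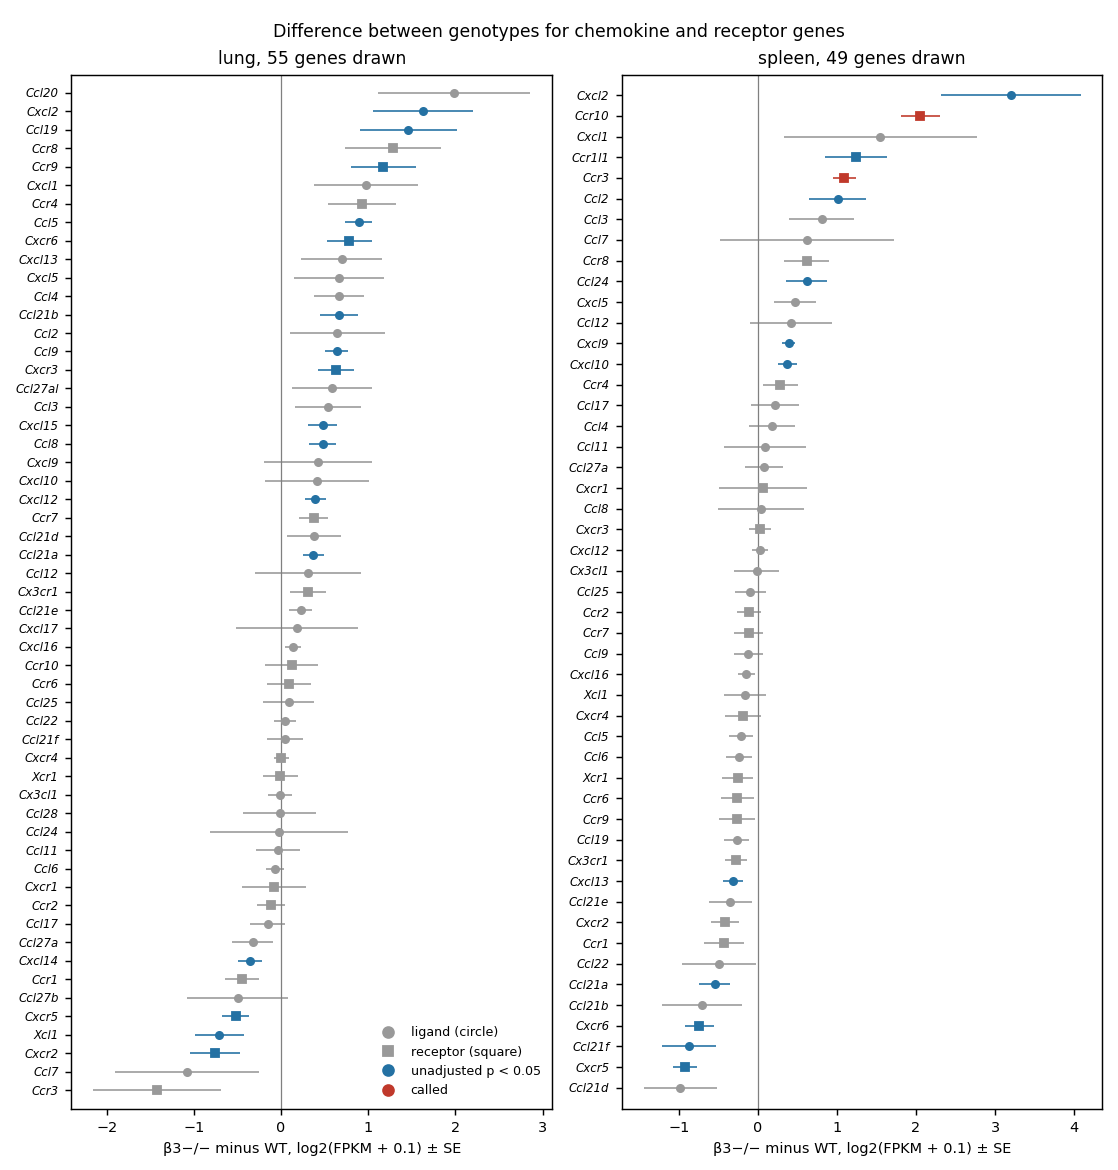
Difference between β3-/- and WT libraries in log2(FPKM + 0.1), with SE as bars, for 55 of the 56 genes tested in lung (left) and 49 of the 50 tested in spleen (right); circles are ligands, squares receptors, blue marks an unadjusted p below 0.05 and red the called genes. No gene is red in lung, and Ccr10 at 2.05 and Ccr3 at 1.09 are red in spleen.

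In spleen, 2 genes rose in β3-/- mice and both were receptors. Of the 61 genes 50 could be tested, since 11 ligands were under the filter there, and 2 were called (4%, against 3.32% of all 15480 genes), 2 higher (background 2.64%) and 0 lower (background 0.678%). Rescaled to TPM, 2 were higher (Ccr10 and Cxcl2) and 2 lower (Cxcr5 and Ccl21f). At an adjusted p below 0.05 with no fold threshold 4 passed (8%, against 9.05% of all genes), 3 higher (background 3.66%) and 1 lower (5.39%). With p not adjusted, and 0.05 as the threshold, there were 13 (26%, against 35.9%), 8 higher (16%, against 9.67%) and 5 lower (10%, against 26.3%). Groups did not overlap for 16 genes (32%, against 43.4%), 9 higher (18%, against 11.4%) and 7 lower (14%, against 32.0%). The shares over both directions were near or below those of all genes, with more genes higher and fewer lower than the background. Erythroid markers (6 of 6) were also higher in spleen, at 25388 to 51627 FPKM in β3-/- against 2860 to 11950 in WT libraries (median log2 difference 3.18, 5 of 6 called), and their part in the spleen values was not tested. The median difference was -0.05 for the 50 genes and -0.16 for all genes tested, and the latter moved with the scaling (-0.36 as TPM, -0.00 by median-of-ratios and -0.10 after quantile normalization).

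Ccr10, the receptor of Ccl27 and Ccl28 that plasma cells and skin T cells carry, was at 0.403, 0.241 and 0.373 FPKM in WT 1, 2 and 3 and at 1.75, 1.39 and 2.01 in β3-/- 1, 2 and 3. All β3-/- libraries lay above all WT libraries, and the mean was 5.06-fold higher. The log2 difference was 2.05 ± 0.25 (limma adjusted p = 0.0119), or 1.02 with a pseudocount of 1 in place of 0.1 (adjusted p = 0.00968). Without WT 3 it was 2.12 with an adjusted p of 0.0529, and without the pair of libraries with pancreas transcripts 2.02 with an adjusted p of 0.0699. Plasma cell markers moved with it. Their summed level (6 of 6) was 2717 to 2930 FPKM in β3-/- spleen against 937 to 1025 in WT spleen, and 4 of them rose at an adjusted p below 0.05. In lung, 1 of the 6 plasma cell markers was called, Jchain (the joining chain of secreted antibodies), with 218, 182 and 234 FPKM in β3-/- against 3.92, 4.22 and 14.2 in WT libraries, and there Ccr10 was at 0.223, 0.183 and 0.214 FPKM in WT and 0.260, 0.274 and 0.176 in β3-/- libraries, with overlap. The part of plasma cells in the spleen value was not tested. The ligands stayed low in spleen, with Ccl28 at 0.0143 to 0.448 FPKM and Ccl27a at 1.33 to 2.42 over the 6 libraries.

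Ccr3, the eotaxin receptor of eosinophils, was at 18.6, 15.1 and 19.7 FPKM in WT and 34.3, 35.2 and 44.9 in β3-/- spleen. The log2 difference was 1.09 ± 0.15 (limma adjusted p = 0.0156), which is a mean 2.14-fold higher. The call was lost without β3-/- 3 (0.97, adjusted p = 0.0391), without WT 2 (0.98, adjusted p = 0.0625), without WT 3 (1.17, adjusted p = 0.0569), without the libraries with pancreas transcripts (1.03, adjusted p = 0.0789), as TPM (0.89, adjusted p = 0.0179) and with all 12 libraries in a single fit (adjusted p = 0.178). Mast cell and eosinophil markers (5 of 5) were at 39.1 to 221 FPKM in β3-/- and 16.5 to 21.7 in WT spleen. Among them Prg2 (major basic protein) was at 18.5, 18.8 and 14.8 FPKM in WT and 47.3, 33.3 and 203 in β3-/- spleen, and Epx (eosinophil peroxidase) at 0.873, 1.66 and 0.562 and 3.68, 3.14 and 13.5. Both markers and Ccr3 were highest in β3-/- 3, and the part of eosinophils in the Ccr3 value was not tested. Ccl24, an eotaxin and ligand of Ccr3, was at 3.64, 1.89 and 3.79 FPKM in WT and 4.34, 4.53 and 4.99 in β3-/- spleen (0.62 ± 0.26, limma adjusted p = 0.139). In lung Ccr3 was low and overlapped, with 3.01, 1.38 and 2.89 FPKM in WT and 1.47, 0.171 and 1.58 in β3-/- libraries, and Epx was listed at 0 in all of them.

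Cxcr5, by which B cells find the Cxcl13 of follicles, was at 96.4, 79.8 and 82.0 FPKM in WT and 44.6, 55.1 and 37.7 in β3-/- spleen. It fell by 0.92 ± 0.15 on the log2 scale (limma adjusted p = 0.0304), short of the fold threshold. The threshold was passed without β3-/- 2 (-1.06, adjusted p = 0.0123), while leaving out each other library raised the limma adjusted p to 0.0577 or more, up to 0.0971. B cell markers (7 of 7) were at 1097 to 1596 FPKM in β3-/- and 2039 to 2156 in WT spleen, 5 of them lower at an adjusted p below 0.05 with a median difference of -0.63, and their part was not tested. Cxcl13 itself was at 149, 194 and 149.6 FPKM in β3-/- spleen and overlapped with WT (-0.31 ± 0.13, limma adjusted p = 0.126).

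Of the interferon-induced ligands, only Cxcl9 passed an adjusted p below 0.05 in spleen, whereas Cxcl10 did not and Cxcl11 was under the filter. Cxcl9 was at 13.3, 14.1 and 13.7 FPKM in WT and 18.1, 18.0 and 17.8 in β3-/- spleen, with no overlap. The difference was 0.39 ± 0.08 (limma adjusted p = 0.0413), under the fold threshold, and rescaled to TPM the difference was 0.19 (adjusted p = 0.202). Without single libraries the limma adjusted p ran from 0.0284 to 0.154. Over all 18 alternatives it ran from 0.0257 (median-of-ratios scaling) to 0.561 (all 12 libraries in a single fit). Cxcl10 was at 34.5, 29.2 and 26.8 FPKM in WT and 35.1, 40.9 and 40.9 in β3-/- spleen (0.37 ± 0.12, limma adjusted p = 0.078). Their receptor Cxcr3 overlapped, with 12.5, 14.5 and 15.2 FPKM and 13.3, 17.1 and 13.

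Cxcr6, a receptor of tissue-resident T cells and NKT cells, was lower in β3-/- spleen, with 12.1, 12.6 and 11.7 FPKM in WT and 5.52, 9.36 and 7.22 in β3-/- libraries (-0.74 ± 0.19, limma adjusted p = 0.0501). NK cell markers (5 of 5) were at 44.9 to 67.97 FPKM in β3-/- and 78.4 to 80.1 in WT spleen, T cell markers (6 of 7 listed) were at 232 to 324 against 299 to 415, and their part was not tested. In lung it was at 2.39, 4.32 and 2.51 FPKM in WT and 5.79, 4.25 and 5.61 in β3-/- libraries. Ccl21a was lower in β3-/- spleen, at 311, 403 and 290.0 FPKM, where the β3-/- maximum of 402.9 lay just under the WT minimum of 403.1 (-0.54 ± 0.20, limma adjusted p = 0.1). Ccl21f was at 10.9, 12.7 and 13.4 FPKM in WT and 9.18, 9.04 and 3.55 in β3-/- spleen (-0.87 ± 0.35, limma adjusted p = 0.12). Ccr1l1, a mouse relative of Ccr1, was at 0.233, 0.293 and 0.700 FPKM in WT and 0.755, 0.934 and 1.47 in β3-/- spleen (1.24 ± 0.39, limma adjusted p = 0.0753). None of these 4 genes passed the adjusted threshold.

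**Figure D5:**
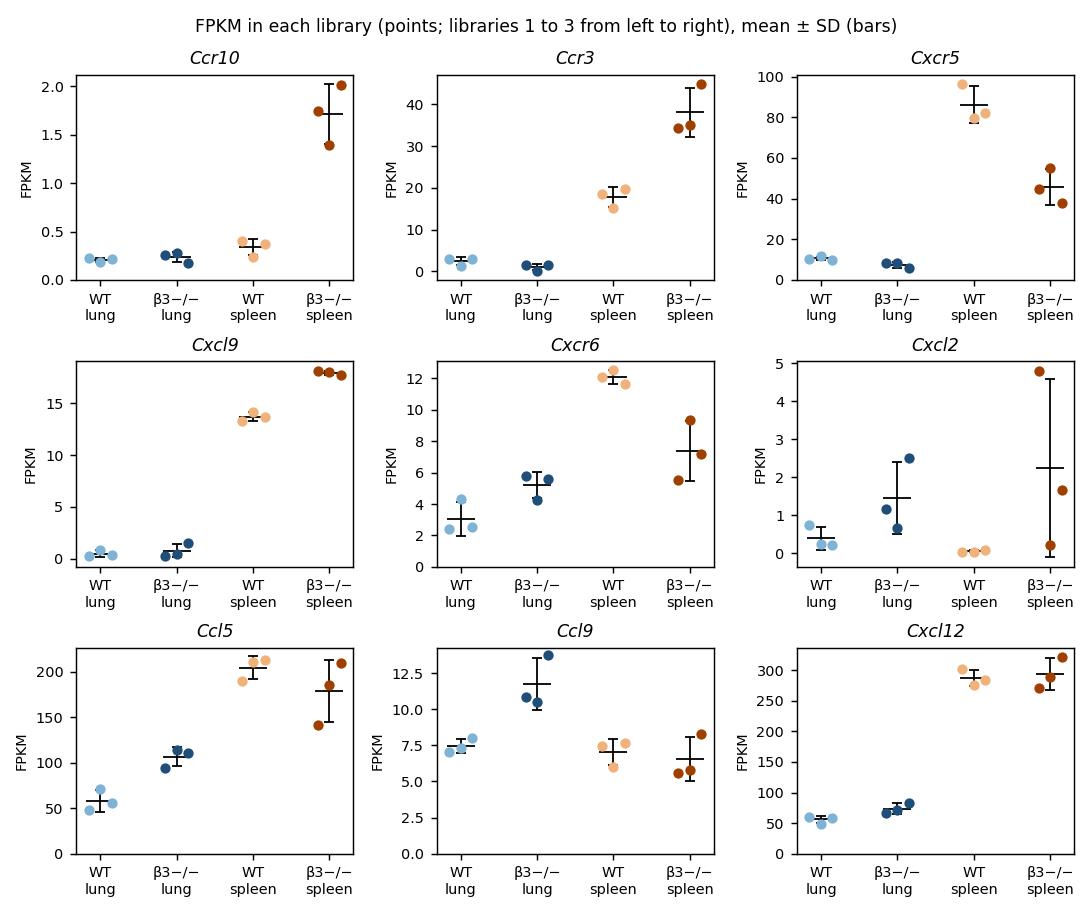
FPKM of 9 genes in each library (points), with mean and SD of the 3 libraries of a group as bars; axes start at or just below 0. Ccr10 and Ccr3 separate in spleen only, Cxcl9 lies at 13.3 to 14.1 FPKM in WT and 17.8 to 18.1 in β3-/- spleen, Ccl5 separates in lung only, and Cxcl2 is spread from 0.22 to 4.80 FPKM in β3-/- spleen.

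Cxcl1 and Cxcl2, attractants of neutrophils, differed widely among the β3-/- spleen libraries. Cxcl2 was at 0.0293, 0.0435 and 0.0926 FPKM in WT and 4.80, 0.219 and 1.67 in β3-/- spleen, so that the groups did not overlap, with β3-/- 1 far above β3-/- 2. The log2 difference was 3.20 ± 0.88 (limma adjusted p = 0.058), and it was 4.36 with a pseudocount of 0.01 and 1.34 with 1. All WT values lay under the filter of 0.1 FPKM, so that Cxcl2 was tested through the β3-/- libraries alone, and its fold and p are given as a description only. Cxcl1 was at 1.94, 0.528 and 0.386 FPKM in WT and 11.5, 0.231 and 4.0 in β3-/- spleen (1.55 ± 1.22, limma adjusted p = 0.386). Both genes were highest in β3-/- 1 and low in β3-/- 2. Ccl2 was likewise lowest in β3-/- 2 among the β3-/- libraries, with 1.34, 1.41 and 0.595 FPKM in WT and 2.52, 1.54 and 2.76 in β3-/- spleen (1.01 ± 0.36, limma adjusted p = 0.0944). Early-response and heat shock genes (7 of 7), which mark handling of tissue, were at 95.7 to 381 FPKM in β3-/- spleen, highest in β3-/- 1, and at 94.4 to 179 in WT spleen. Neutrophil markers were highest in β3-/- 3. Their part in these values was not tested.

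Since Cxcl1 and Cxcl2 had the same order in the β3-/- spleen libraries, the bases before their start sites were read (RefSeq promoters, GRCm38.p6, placed on GRCm39 by exact match). Both hold a match to the κB motif, the site of NF-κB factors, 71 and 97 bases before the start, and Cxcl10 holds κB matches and a match to the interferon-stimulated response element (ISRE, here GAAA, any 2 bases and GAAA again). The stretches are shown with the matches in capitals. They run from 120 to 31 bases before the start of Cxcl1 (chr5:91038984-91039073, plus strand) and of Cxcl2 (chr5:91051638-91051727, plus strand), and from 220 to 91 bases before that of Cxcl10 (chr5:92496839-92496968, minus strand).

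Cxcl1: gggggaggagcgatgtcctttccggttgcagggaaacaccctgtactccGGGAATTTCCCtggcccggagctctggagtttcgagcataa

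Cxcl2: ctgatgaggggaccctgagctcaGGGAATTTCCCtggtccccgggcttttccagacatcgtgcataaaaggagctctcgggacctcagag

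Cxcl10: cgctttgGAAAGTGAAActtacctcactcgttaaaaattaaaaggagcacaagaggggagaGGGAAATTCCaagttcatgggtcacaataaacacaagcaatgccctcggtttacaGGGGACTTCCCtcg

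The capitals in Cxcl1 and Cxcl2 mark the overlapping κB matches of both strands. In Cxcl10 they mark, from left to right, the ISRE, a κB match and a run of overlapping κB matches. Both strands of the 250 bases before the start were searched. A κB match was found in 7.25% of all 32851 promoters in the table and in 10 of the 50 promoters of the 43 chemokine and receptor genes it holds (20%). Besides Cxcl1, Cxcl2 and Cxcl10, these were Cxcl3, Ccl1, Ccl20, Ccl9, Ccr1, Ccr3 and Ccr6. Cxcl3 holds the same match as Cxcl1 and Cxcl2, 73 bases before the start. It was at 0, 0.101 and 0.0623 FPKM in β3-/- spleen 1, 2 and 3, another order than that of Cxcl1 and Cxcl2. An ISRE match was found in 2.98% of all and 3 of 50 (6%), those of Cxcl10, Ccl19 and Cxcl14, and a match to the GAS element (TTCNNNGAA) in 7.02% and 4 of 50 (8%). Among the genes that stood apart in spleen, Ccr3 also held a κB match and Ccr1l1 a GAS match. A match describes letters and not a bound site.

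The difference of the genotype effect between lung and spleen was tested as an interaction over all 12 libraries and 16312 genes, with 57 of the 61 genes tested. It was called for 1 gene, Ccr10 (1.75% of the genes tested, against 0.294% of all genes and 0.147% in that direction), whose genotype effect differed, lung minus spleen, by -1.93 ± 0.34 on the log2 scale (limma adjusted p = 0.0454). With the mouse as a block, since lung and spleen came from the same animals, the adjusted p was 0.0863 and 0 genes were called. The call was also lost without any single one of the 6 lung libraries, without spleen WT 2, WT 3, β3-/- 1 or β3-/- 3 (adjusted p 0.0572 to 0.142), without the libraries with pancreas transcripts (0.0588) and with a pseudocount of 0.01 (0.058) or 1 (where it was under the fold threshold at -0.98).

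Ccl5 was next, with a difference of 1.10 ± 0.23 (limma adjusted p = 0.0555), from 0.89 in lung and -0.21 in spleen, where it was at 141, 185 and 209.7 FPKM in β3-/- mice. Rescaled to TPM or quantile normalized, Ccl5 was called higher beside Ccr10 lower. Cxcr6 differed by 1.52 ± 0.33 (limma adjusted p = 0.0628), from 0.78 in lung and -0.74 in spleen. Ccl21a differed by 0.92 ± 0.25 (limma adjusted p = 0.102), every β3-/- lung library lying above and every β3-/- spleen library below all WT libraries of its tissue. Ccr3 differed by -2.51 ± 0.80 (limma adjusted p = 0.137), from -1.42 in lung, where its libraries overlapped, and 1.09 in spleen. Without lung β3-/- 2, the library with 0.171 FPKM, it was -1.65 (adjusted p = 0.12). Ccl9, Ccr9 and Ccl19 had estimates of 0.76, 1.44 and 1.73 with adjusted p of 0.131, 0.133 and 0.162 by limma. None of these 7 genes passed the adjusted threshold with the settings used throughout.

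Ligands and receptors known to bind each other are set side by side here as mean ± SD (n = 3 in each group), for what the text has not yet given. Cxcl16, the membrane-bound ligand of Cxcr6, was at 29.4 ± 3.02 FPKM in WT lung, 32.2 ± 1.40 in β3-/- lung, 20.7 ± 2.34 in WT spleen and 18.6 ± 0.0609 in β3-/- spleen, with a tissue difference of 0.50 ± 0.11 in WT mice, under the fold threshold, where Cxcr6 was called higher in spleen. Of its exon bases, 43.2% overlap Med11 and 41.6% overlap Zmynd15, both on the opposite strand. Xcr1, the receptor of Xcl1 on cross-presenting dendritic cells, was at 0.869 ± 0.0622, 0.865 ± 0.0868, 5.27 ± 0.271 and 4.48 ± 1.13 FPKM in the same order, and Xcl1 was at 6.30 ± 2.59 and 5.36 ± 0.614 in spleen. Both partners were called higher in spleen in both genotypes. Cx3cr1, the fractalkine receptor of monocytes and NK cells, was at 3.05 ± 0.324, 3.87 ± 0.989, 8.4 ± 0.363 and 6.98 ± 1.05 FPKM. It was called higher in spleen in WT mice, whereas Cx3cl1 was called higher in lung.

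For the inflammatory axes, the neutrophil and monocyte receptors were not called between tissues. Cxcr2 was at 8.15 ± 0.595 FPKM in WT lung and 9.93 ± 1.27 in WT spleen, and its ligands Cxcl1, Cxcl2 and Cxcl3 had WT means below 1 FPKM in both tissues, with Cxcl5 at 0.261 ± 0.180 in lung and 1.33 ± 0.385 in spleen. Ccr2 was at 12.9 ± 2.59, 11.8 ± 1.03, 9.99 ± 0.390 and 9.36 ± 1.86 FPKM in WT lung, β3-/- lung, WT spleen and β3-/- spleen. Its ligands Ccl7 and Ccl12 ranged from 0 to 2.25 and from 0.298 to 2.15 FPKM over the 12 libraries. Ccl3 and Ccl4, ligands made by activated T cells and macrophages, ranged from 0.431 to 2.22 and from 0.634 to 3.09 FPKM over the 12 libraries, far under Ccl5. Cxcl11, the remaining ligand of Cxcr3, was at most at 0.10 FPKM in any library.

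Of the axes of lymphocyte subsets, Ccl20, the ligand of Ccr6, was listed at 0 in all 6 spleen libraries and was at 0.0376, 0 and 0.382 FPKM in WT and 1.11, 0.139 and 1.34 in β3-/- lung, with overlap. Ccr6 was at 1.65 ± 0.453 FPKM in β3-/- lung and 14.8 ± 4.77 in β3-/- spleen. Ccl25, the ligand of Ccr9, was at 1.89 ± 0.313, 2.09 ± 0.713, 1.68 ± 0.184 and 1.58 ± 0.335 FPKM, while Ccr9 was at 5.10 ± 0.961 in WT and 4.26 ± 1.07 in β3-/- spleen. Ccl22, the second ligand of Ccr4 beside Ccl17, was at 6.54 ± 0.736 FPKM in WT lung and at 3.62, 15.4 and 5.43 in WT spleen, the high value being that of WT 2, the library with pancreas transcripts. Ccr4 was low throughout, from 0.163 to 0.745 FPKM in lung and from 0.749 to 1.30 in spleen. Cxcr4 was at 66.5 ± 1.97 FPKM in β3-/- lung and 147 ± 36.1 in β3-/- spleen, and Ccr7 at 109.9 ± 24.4 in β3-/- spleen, each overlapping with WT.

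The remaining genes were low, or were not called by genotype. Ccl11, an eotaxin, ranged from 3.05 to 5.61 FPKM in lung and from 0.822 to 3.39 in spleen, Ccl27a from 4.35 to 9.07 in lung, and Ccl21d and Ccl21e from 9.52 to 26.1 and 17.9 to 24.8 in lung. Ccr1 was lower in every β3-/- than in every WT lung library, at 3.29 to 5.20 against 5.58 to 6.55 FPKM (limma -0.45 ± 0.19), and Ccr4 was higher in every one, at 0.257 to 0.745 against 0.163 to 0.234 FPKM (0.92 ± 0.39). In spleen the groups of Ccl21d (-0.98), Ccr8 (0.62), Cx3cr1 (-0.27) and Cxcr2 (-0.41) did not overlap either. All 6 had an unadjusted limma p above 0.05. Ccr8 ranged from 0.0863 to 1.26 FPKM in lung and from 0.476 to 1.39 in spleen, and Cxcr1 from 0.0193 to 0.479 over all libraries. Ccl1, Ccl26, Ccl27al, Ccl27b, Ccl28 and Cxcl3 stayed at or under 0.54 FPKM in every library.

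Genes around the receptors were read from fixed lists, written with earlier results of these data known. Over all genes tested, 0.315% were called in lung and 3.32% in spleen. The lists are short, so their counts are given as a description only. Of 5 scavenging and atypical receptors, which remove chemokines without G-protein signalling, 0 were called in lung and Ackr1 rose in spleen, with 3.22, 1.95 and 2.21 FPKM in WT and 11.7, 5.08 and 5.25 in β3-/- libraries (1.46 ± 0.34, limma adjusted p = 0.0459). Of the platelet chemokines Pf4 and Ppbp, Ppbp was called higher in both tissues. In spleen it was at 111, 74.8 and 63.2 FPKM in WT and 285, 198 and 851 in β3-/- libraries, where platelet and megakaryocyte markers (4 of 4) were at 43.2 to 177 FPKM against 19.4 to 29.1, and their part was not tested. Of 12 genes of receptor coupling and desensitisation, 0 were called in lung and 1 was in spleen, Rgs1 (a brake on receptor signalling in lymphocytes), with 21.6, 27.7 and 26.2 FPKM in WT and 57.8, 48.6 and 47.2 in β3-/- libraries (1.02 ± 0.13, limma adjusted p = 0.0128). In lung Rgs1 was at 2.53, 2.83 and 1.98 FPKM in WT and 5.87, 4.56 and 8.63 in β3-/- libraries (limma adjusted p = 0.131), with no overlap in either tissue. Gnai2, the main inhibitory G-protein subunit of leukocytes, was at 275 to 299 FPKM in the lung libraries with high Ubb and at 104 to 134 in those with low Ubb.

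Of 9 genes of migration signalling, 0 were called in either tissue and the median difference was 0.07 in lung and -0.28 in spleen, against -0.02 and -0.16 for all genes. In spleen Coro1a and Rac2, regulators of actin in leukocytes, fell by 0.62 ± 0.14 and 0.47 ± 0.11 at adjusted p of 0.0423 and 0.047 by limma, under the fold threshold. Of 6 genes of chemokine shedding and trimming, 0 were called, and Adam10, which releases Cx3cl1 and Cxcl16 from the membrane, rose by 0.42 ± 0.10 in spleen (limma adjusted p = 0.0477), under the fold threshold.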

How the data were processed

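Total RNA of lung and spleen from 3 WT and 3 β3-/- mice was sequenced on a NovaSeq instrument. The submitters' processing notes name Trimmomatic, HISAT2, featureCounts and the GRCm39 genome. The authors deposited 1 FPKM value per gene and library, scaled to gene length and mapped fragments; the tool that made the FPKM values, the strand setting and the treatment of reads shared by gene copies are not given in the sources used here, and the number of reads per library is unknown. Besides Ccr6 and Cxcl16, the largest exon overlaps with a gene on the opposite strand were those of Cxcl11 (41.7% of exon bases), Ccl3 (35.6%) and Cxcl5 (27.6%). Those of Ccl27a (25.7%), Xcr1 (24.1%), Xcl1 (18.7%) and Ccr9 (18.3%) came next. The same limit applies to their values. No sample column was left unused (0).

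Values were taken to log2(FPKM + 0.1), genes that reached 0.1 FPKM in fewer than 3 libraries of a fit (for the interaction, of either tissue) were left out, and limma 3.58.1 in R 4.3.3 (empirical Bayes with trend, Benjamini-Hochberg adjustment over all genes tested) was fitted per tissue, per genotype across tissues, and over 12 libraries for the interaction. It was checked on simulated data, where only genes of at least 1 FPKM in every library of a tissue were changed, each by more than the fold threshold. That check does not cover lower genes or smaller differences. The TPM values used as an alternative were computed here by rescaling the FPKM values to a common sum. Lung and spleen of a genotype come from the same mice by the study's methods, with correlations of same-numbered deviations of 0.02 to 0.15. Sequences came from GENCODE M39 (GRCm39) and, for promoters, from RefSeq (GRCm38.p6), where 43 of 61 genes were matched. Figures were drawn with matplotlib 3.10.9.

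The genes and lists were chosen with earlier results of these data known. Values in each library are given for genes called between genotypes, genes with an unadjusted p below 0.05 and groups that did not overlap, the 5 most abundant ligands and receptors in each WT tissue, and the 5 largest tissue differences in each direction. Alternatives were the pseudocount, the filter, the scaling, trend and weights, a replicate block, a single fit of all libraries, and leaving out single libraries. Leaving out the spleen libraries with pancreas transcripts, or the one richest in neutrophil markers, was added after seeing the data. A gene of the set is counted in the totals but not reported here.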

Additional observations from a re-analysis of the deposited data

Results flagged for a closer look

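A difference of the genotype effect between the tissues was called for Ccr10 in the main fit, but the call was lost in 14 of 23 alternatives. The estimate was 0.12 in lung and 2.05 in spleen on the log2 scale, a difference of -1.93 ± 0.34 (limma adjusted p = 0.0454). With the mouse as a block, which respects the shared animals, the limma adjusted p was 0.0863 and the call was lost. In spleen all 3 β3-/- libraries lay above all 3 WT libraries.

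Ccl21a went in opposite directions in every library of the 2 tissues. It was higher by 0.37 on the log2 scale in β3-/- lung, and its difference in β3-/- spleen was -0.54, each without overlap between genotypes. The test of that difference did not pass (0.92 ± 0.25, limma adjusted p = 0.102), except without spleen β3-/- 2 (1.06, adjusted p = 0.0395). In spleen the separation rests on 402.9 against 403.1 FPKM.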

How the results depend on the processing

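Over 57 results for single genes and 1022 values under alternatives, 980 kept their direction and their side of the thresholds, 22 lost a call, 20 gained one and 0 reversed. These genes were followed because their genotypes did not overlap or their tissue differences were the largest. The 0 is thus in large part fixed by that choice. In lung, the count of genes called higher was 1 with sample weights (Ccl5) and 0 to 1 without single libraries, and 0 were called lower without any of them. In spleen, 4 were called higher with the replicate block, 0 without the libraries with pancreas transcripts and 0 to 3 without single libraries, and 2 were called lower as TPM, 1 with no fold threshold and 0 to 1 without single libraries. In the comparison of tissues, the counts without single libraries were 6 to 11 higher and 23 to 24 lower in lung in WT mice, and 9 to 16 and 19 to 22 in β3-/- mice. For the interaction of genotype and tissue, the count lower in lung was 0 with a pseudocount of 1 or 0.01, with the mouse block and without the libraries with pancreas transcripts, and 0 to 1 without single libraries. The count higher was 1 with a filter at 1 FPKM, as TPM or after quantile normalization, 2 with sample weights and 0 to 3 without single libraries. The cause of these changes was not tested.

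WT and β3-/- libraries share replicate numbers only by name. Deviations of same-numbered libraries correlated at 0.20, 0.03 and -0.04 in lung and at 0.18, 0.27 and 0.08 in spleen, and not every library correlated best with its own number. With the number as a replicate block, 0 genes were called in lung and 4 higher in spleen (Ccr10, Ccr3, Cxcl2 and Ccr1l1). Over all genes, the block called 16 higher in lung in place of 45. Cxcl2 gives no value in spleen without a β3-/- library, since it then is under the filter. Read depth is unknown, so values near 0 carry no stated limit.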
